A study of Capsicum annuum and Solanum lycopersicum with 125 samples.

Results

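The genes described here are 200 tomato genes whose level at 7 days after grafting (DAG) was higher in the stock of pepper:tomato heterografts than in every other tomato tissue sampled that day. They were selected on the 20 tomato libraries of 7 DAG, out of 34688 genes in the tomato count table. For each gene the counts were divided by the library total and scaled to counts per 1e6 (CPM), averaged within each group, and put on the scale log2(mean CPM + 2). The score was the value in heterografted stocks minus the largest value among the other 4 groups, and the 200 genes with the highest scores were kept.

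The study grafted tomato (Solanum lycopersicum var. M82) with pepper (Capsicum annuum var. California Wonder) and sequenced short stem pieces at the junction by 3' RNA-seq at 7, 14 and 21 DAG. The tomato tissues were ungrafted stems, the scion and the stock of tomato self-grafts, the scion of tomato:pepper heterografts (tomato above pepper) and the stock of pepper:tomato heterografts (tomato below pepper). Ungrafted stems of the same age were the common control. A stem piece mixes vascular, cortical, epidermal and callus cells, so fewer cells of one type and less RNA per cell cannot be told apart. The groups held 3 to 5 libraries each, with the replicates of a group described as biological. Total counts ran from 952084 to 3136541 per library outside the heterografted stocks, and from 1372534 to 2358149 in the 4 heterografted stocks of 7 DAG. The 3 heterografted stock libraries of 14 DAG held only 900 to 1509 counts, and those of 21 DAG 32731 to 267066, so values from these groups are coarse. The study described low alignment rates, read as degraded RNA, in heterografted stocks, above all at 21 DAG. Alignment rates were not examined here, and their part in the selection at 7 DAG was not tested.

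A graft junction begins as a wound. Cut cells release oxylipins such as jasmonic acid and the gas ethylene, and tissue that meets a pathogen or dying neighbours accumulates salicylic acid and pathogenesis-related (PR) proteins. In a graft that heals, callus then bridges the wound and xylem and phloem are rejoined through it. None of the 200 genes carries a name in the sources used here, so members are given by identifier and counted as a group, and no role is given to any of them.

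At 7 DAG the 200 genes held 3.73% to 4.47% of all counts in the 4 heterografted stocks (median 4.12%). In the other 16 libraries of that day their share lay between 0.124% and 0.47%, with group medians of 0.155% in ungrafted stems, 0.227% in self-grafted scions, 0.314% in self-grafted stocks and 0.292% in heterografted scions. The 2 sets of values are far apart because the genes were selected for that gap, so they are given with no test. Scores ran from 6.44 to 2.31 with a median of 2.90. The last 3 genes kept scored 2.328, 2.317 and 2.314, and the first 3 left out 2.311, 2.305 and 2.303, so the limit separates no natural group. The mean level in heterografted stocks ran from 9.27 to 2977 CPM with a median of 75.6 CPM, while the median of the highest other group was 5.82 CPM. That highest other group was the self-grafted stock for 87 genes, the heterografted scion for 54, the self-grafted scion for 38 and the ungrafted stem for 21. All 4 stock libraries lay above all 16 other libraries for 138 of the 200 genes, and 15 genes had no count in any of the 16. Over the whole count table all 4 stocks lay above all 16 others for 1096 of 34688 genes. The selection favours such genes.

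**Figure D1:**
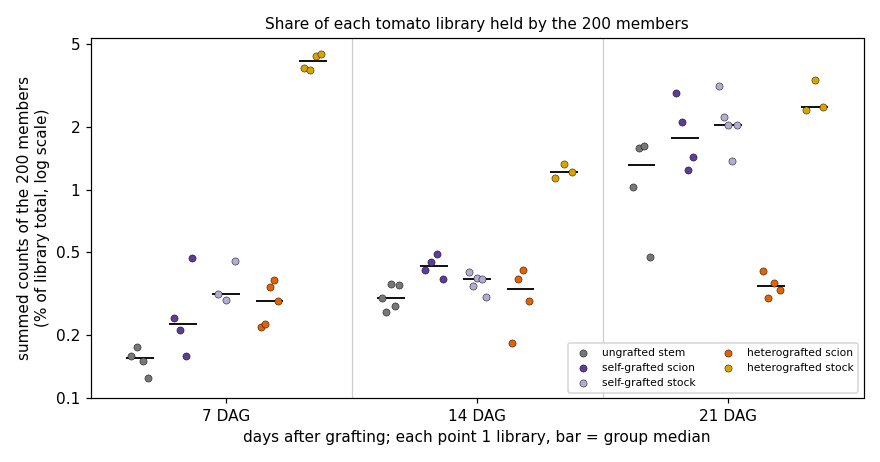
Summed counts of the 200 members as a percent of each library's total (y axis, log scale) by days after grafting (x axis); points are libraries, bars are group medians and colours are the 5 tomato tissues. The heterografted stocks of 7 DAG sit between 3.73% and 4.47%, and at 21 DAG the heterografted scions (0.301% to 0.405%) lie below every other library.

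Solyc08g029000 measured 54.6, 202, 88.3 and 406 CPM in the heterografted stocks of 7 DAG. It had no count in ungrafted stems, reached 6, 7.12 and 18.6 CPM in self-grafted stocks, and was at 0 in 4 of 5 scions of the reciprocal tomato:pepper heterografts. Solyc12g014100 measured 123, 98, 195 and 72.5 CPM in the heterografted stocks against 22.5, 27.3 and 18 CPM in self-grafted stocks. In both genes every heterografted stock lay above every self-grafted stock, as the selection favours.

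Solyc10g083880 had the highest score. It measured 337, 82.7, 192 and 77.1 CPM in the heterografted stocks and had no count in the other 16 libraries of 7 DAG. The most abundant members were Solyc09g082810 with 3863, 1823, 3494 and 2729 CPM and Solyc09g075210 with 4369, 1727, 3936 and 1867 CPM in the same 4 stocks. Solyc09g082810 reached at most 264 CPM in any other library of that day, and Solyc09g075210 at most 723 CPM, in a heterografted scion. In both, the 4 stocks lay well apart from all other libraries, as the selection favours.

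The 4 heterografted stocks of 7 DAG varied in level over these genes. The rule uses a group mean, which 1 high library can raise, and this spread was not computed for other genes. The median coefficient of variation of a member over the 4 libraries was 54.7% (quartiles 35.3% and 84%). Replicate 5 held the highest value for 78 members and replicate 1 the lowest for 109, and both held at once for 67. Another 47 members were highest in replicate 1. For 57 members over 50% of the summed CPM of the 4 stocks came from 1 library, which was replicate 5 in 39 cases. Counts were present in all 4 stocks for 164 members, in 3 for 29, in 2 for 6 and in 1 for 1. Leaving out 1 library of 7 DAG at a time kept 167 to 199 of the 200 genes, with the fewest without heterografted stock replicate 5 and 172 without replicate 1.

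Tomato identifiers number the genes along each chromosome, with the digits 00 for sequence not placed on one. Members were found under every number. They made up 0.577% of all genes. By share they ranged from 0.264% under chromosome 10 (7 of 2651 genes) to 0.857% under chromosome 8 (21 of 2451) and 0.865% on unplaced sequence (5 of 578, all of them near-identical copies), and by number chromosome 2 held the most (23 of 3386). In the order of identifiers, 40 members fell into 17 runs in which at most 5 other genes stood between neighbours, and 11 pairs had no gene between them. The runs of 3 included Solyc12g100250, Solyc12g100260 and Solyc12g100270, with 49.7, 47.7 and 227 CPM in heterografted stocks of 7 DAG, and Solyc08g080630, Solyc08g080640 and Solyc08g080660, with 1065, 194 and 88.3 CPM. These runs were singled out after their values were seen.

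Some members cannot be counted as separate genes. In 5 sets holding 13 members, the counts agreed almost exactly over all 61 libraries (totals within 5% and every Pearson r at or above 0.9998), so the same reads may have been given to several copies. The largest set was 5 genes on unplaced sequence with 383 to 391 CPM each. Solyc02g085940 and Solyc02g085950 had 8511 and 8584 counts in all and 919 and 926 CPM in heterografted stocks of 7 DAG, and are given as an example chosen after their values were seen. With each set counted once, 192 members remain. The summed shares of counts given here include every gene of each set, so they may hold the same reads more than once.

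**Figure D2:**
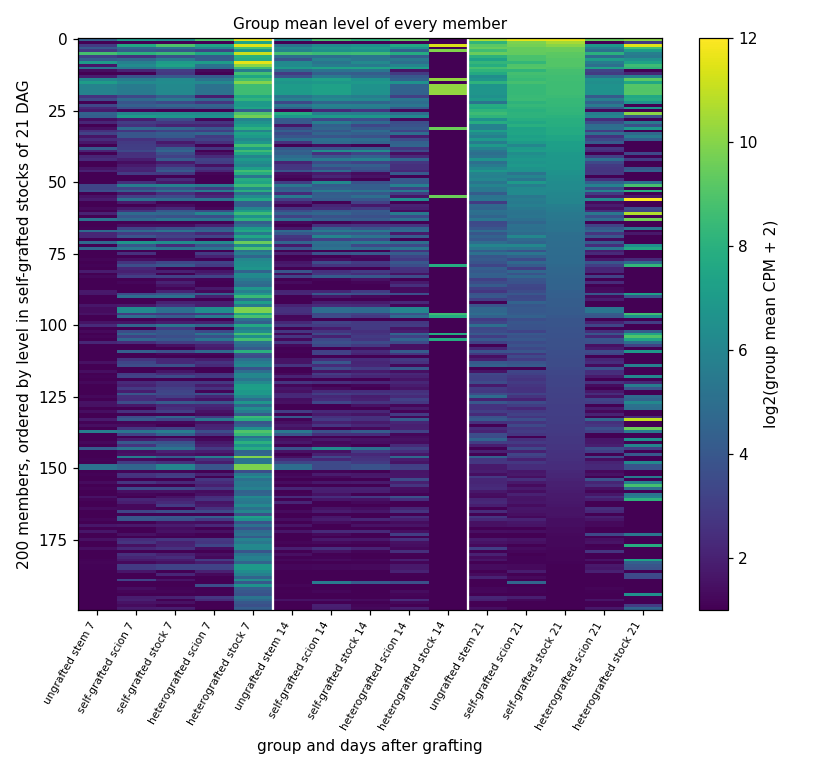
Group mean level of each of the 200 members (rows, ordered by the level in self-grafted stocks of 21 DAG) in the 15 groups (columns), as log2(group mean CPM + 2). In every row the heterografted stocks of 7 DAG lie above the other groups of that day by selection, at means from 9.27 to 2977 CPM. At 21 DAG many of the upper rows are high in ungrafted and self-grafted stems and low in heterografted scions. The column of heterografted stocks of 14 DAG rests on 900 to 1509 counts per library.

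The libraries of 14 and 21 DAG took no part in the selection, and they show that the genes were not confined to the heterografted stock of 7 DAG. At 14 DAG the share of counts was again low, with group medians of 0.303% in ungrafted stems, 0.429% in self-grafted scions, 0.371% in self-grafted stocks and 0.332% in heterografted scions. At 21 DAG it was 1.03%, 1.58%, 1.62% and 0.476% in the 4 ungrafted stems, 1.24% to 2.92% in self-grafted scions and 1.37% to 3.15% in self-grafted stocks. The heterografted scions stayed at 0.405%, 0.301%, 0.355% and 0.33%, below every other library of that day. The heterografted stocks of 21 DAG held 2.4%, 3.35% and 2.5%. The highest of all group means was that of the heterografted stock of 7 DAG for 128 members, of the heterografted stock of 21 DAG for 32, of the self-grafted stock of 21 DAG for 31, of the self-grafted scion of 21 DAG for 7 and of a group of 14 DAG for 2, with the sparse heterografted stocks of 14 DAG left out. Of the 72 members that peaked elsewhere, the 32 rest on libraries of 32731 to 267066 counts, where few reads can set a group mean. Some of them lay close to the 7 DAG level, such as Solyc11g068940 at 67.7 against 64 CPM. Others lay far above it, such as Solyc08g080640 at 6497 against 194 CPM. The order is therefore uncertain for some of the 32. For members that peaked in other groups, a description as genes of the 7 DAG stock alone holds within 7 DAG only.

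Tests were made on these later libraries with edgeR's quasi-likelihood test, and a gene was called where the Benjamini-Hochberg adjusted p over all tested genes was under 0.05 and the log2 fold change was over 1.5 or under -1.5. The test covered 12176 genes, those with a mean of 10 counts or more that were at 0 in under 75% of the libraries. Of the 200 members, 142 passed this filter and 58 did not. The 58 were lower, with a median of 26.4 CPM in heterografted stocks of 7 DAG against 121 CPM for those tested. Since a member with counts in the 7 DAG stock alone has too many zeros to pass, passing favours members that were also detected elsewhere, and counts with no filter are given for the main contrasts. The heterografted stocks of 7 DAG were among the libraries of the filter. Without them, an alternative added after the data were seen, 102 members passed, so 40 of the 142 were tested only through the group they were selected to be high in. Counts over the 102 are given beside the main ones for the contrasts the text turns on.

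Ungrafted stems were compared between 21 and 14 DAG, a comparison added after the data were seen. Of the 142 tested members 66 rose and 4 fell, against 2.86% and 4.88% of all tested genes. The median log2 fold change was 2.46 for the members and 0.02 for all genes, and 126 of 142 were above 0. With no filter, 69 of 199 members rose, against 1.73% of 22125 genes. With only these 2 groups in the fit, 36 members rose. Over the 102 members that passed without the heterografted stocks of 7 DAG, 54 rose and 4 fell, against 2.77% and 4.98% of 12099 genes. The age of the stem and any difference between collection days cannot be told apart here.

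Solyc09g075210 was among the members that rose in ungrafted stems. It measured 114, 101, 90.7, 24.1 and 66.9 CPM at 14 DAG and 2353, 1325, 2216 and 508 CPM at 21 DAG, so the groups did not overlap. Its log2 fold change was 4.39 ± 0.52 (SE, n = 5 and 4, adjusted p = 7.31e-07 by edgeR). Solyc10g083880, which passed the filter only with the heterografted stocks of 7 DAG and is given with no test, had no count in the 5 stems of 14 DAG and 43.9, 603, 512 and 0 CPM at 21 DAG, a mean at least 967-fold above the level of 3 counts over the stems of 14 DAG. One of the 4 stems of 21 DAG, replicate 5, was therefore as low as those of 14 DAG, and the same library had the lowest share of counts on the members. Among those that fell was Solyc02g085950, from 29.1, 28.3, 39.3, 19.2 and 30.2 CPM to 0, 4.29, 1.75 and 0 CPM (log2 fold change -4.15 ± 0.99, adjusted p = 0.00313 by edgeR).

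Self-grafted stocks were compared between the same days. Of the 142 tested members 72 rose and 1 fell, against 2.99% and 7.51% of all tested genes, with medians of 2.13 for the members and -0.03 for all genes. Of the 102 members, 60 rose and 1 fell, against 2.84% and 7.68%. The 1 that fell was not called in 6 of the fits that left out a single library of either day. The 2 comparisons share no library, and 48 members were called up in both, which is 72.7% of those in ungrafted stems and 66.7% of those in stocks. Among the 102 members 41 were called up in both. Over all tested genes 157 were called up in both, 45.1% and 43.1% of the 2 lists. Of the 142 members 46.5% and 50.7% were called up in stems and stocks, against 2.86% and 2.99% of all tested genes. With such unlike base shares, the overlaps of members and of all genes cannot be set against each other. Whether the 2 courses differed was not tested. Solyc10g083880 went from no count in 5 stocks of 14 DAG to 3148, 1765, 1309, 442 and 701 CPM at 21 DAG, at least 5239-fold above the level of 3 counts over the group. Solyc08g029000 measured 0, 11.1, 19.6, 8.12 and 0 CPM at 14 DAG and 360, 124, 22.8, 41.9 and 57.1 CPM at 21 DAG, with no overlap (log2 fold change 3.98 ± 0.92, adjusted p = 0.00174 by edgeR).

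Between ungrafted stems and self-grafted stocks of 21 DAG no member was called in either direction by edgeR, and 0.0657% of all tested genes were called up and 0.0246% down. At an unadjusted p under 0.05, 33 members were higher and 3 lower in the stocks, beside 6.66% and 5% of all tested genes, and DESeq2 called 12 up and none down, beside 0.476% and 0.608%. The median log2 fold change of the members was 0.54, with 99 of 142 above 0. Without ungrafted replicate 2 the test called 3 up, and without ungrafted replicate 4 it called 6 up. At 14 DAG, 13 members were called higher in self-grafted stocks than in ungrafted stems and 1 lower, against 1.31% and 0.304% of all tested genes. That count of 13 was 6 without self-grafted stock replicate 5 and 7 without ungrafted replicate 5, and 3 with only the 2 groups in the fit, while DESeq2 called 20, beside 1.86% of all tested genes. The 1 lower member became 2 without self-grafted stock replicate 1, ungrafted replicate 1 or ungrafted replicate 4. Of the 102 members none was called in either direction at 21 DAG, against 0.0661% and 0.0248% of 12099 genes. At 14 DAG 13 of them were called higher and 1 lower in self-grafted stocks, against 1.29% and 0.314%.

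**Figure D3:**
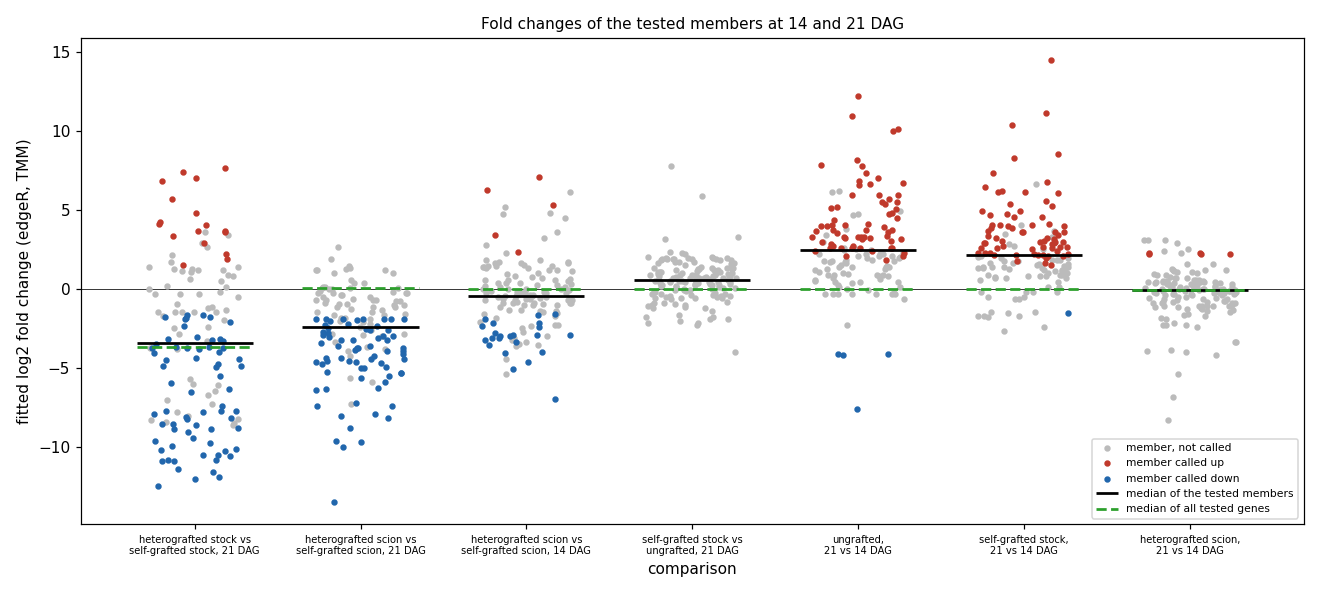
Fitted log2 fold changes (y axis, edgeR with TMM scaling) of the 142 tested members in 7 comparisons (x axis); red and blue points are members called up and down, black bars the median of the members and green dashed bars the median of all 12176 tested genes. The member median stands at 2.46 and 2.13 for 21 against 14 DAG in ungrafted stems and self-grafted stocks, and at -2.42 for heterografted against self-grafted scions of 21 DAG, where the median of all genes is 0.03.

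In the tomato scion of the heterograft few genes of any kind were called between the same days, 34 up and 1 down of 12176. A difference from the courses of ungrafted stems and self-grafted stocks was not tested. Between 14 and 21 DAG, 5 of the 142 members rose in heterografted scions and none fell by edgeR, against 0.279% and 0.00821% of all tested genes, and the median of the members was -0.09. The 5 that rose were the near-identical genes on unplaced sequence, so they may be 1 transcript. They lost the call without heterografted scion replicates 2, 3 or 4 of 14 DAG or replicates 1 or 3 of 21 DAG. At an unadjusted p under 0.05, 8 members rose and 6 fell, beside 5.72% and 3.51% of all tested genes, and DESeq2 called 7 up and 1 down, beside 0.255% and 0.0986%. Of the 102 members 5 rose and none fell by edgeR, against 0.264% and 0.00827% of 12099 genes.

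At 21 DAG, 70 of the 142 members were lower in heterografted than in self-grafted scions and none was higher by edgeR, against 4.6% and 3.53% of all tested genes. DESeq2 called 75 down and none up, beside 4.74% and 4.75%, and no member was higher at an unadjusted p under 0.05, beside 12.4% of all tested genes. Of the 102 members 61 were lower and none higher by edgeR, against 4.54% and 3.56% of 12099 genes. The median log2 fold change was -2.42 for the members and 0.03 for all genes, and 122 of 142 members were below 0. With no filter, 69 of 197 members were lower, against 2.79% of 21013 genes. The fits that left out 1 library of either group called 55 to 67 lower. Against ungrafted stems of 21 DAG, 56 members were lower and none higher in heterografted scions by edgeR, against 3.56% and 3.88% of all tested genes. At an unadjusted p under 0.05, 2 members were higher, beside 12.6% of all tested genes, DESeq2 called 1 up, beside 4.28%, and without ungrafted replicate 2 edgeR called 6 up. Of the 102 members 48 were lower than in ungrafted stems and none higher by edgeR, against 3.5% and 3.96% of 12099 genes. The comparisons with self-grafted scions and with ungrafted stems use the same heterografted scion libraries. Of the 66 members that rose from 14 to 21 DAG in ungrafted stems, 40 (60.6%) were among the 70 lower in heterografted scions than in self-grafted scions, which is 57.1% of the latter. Those 70 are 49.3% of the tested members. Among the 102 members the lists held 54 and 61 and shared 36. Over all tested genes the 2 lists shared 109 genes, 31.3% and 19.5% of them. As 49.3% of the members but 4.6% of all tested genes were lower in heterografted scions, these overlaps cannot be set against each other.

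Solyc10g083880 measured 1430, 1182, 458 and 548 CPM in self-grafted scions of 21 DAG and had no count in any of the 4 heterografted scions, again with no test. The self-grafted mean was at least 2260-fold above the level of 3 counts over the heterografted scions. Solyc08g029000 measured 200, 50.1, 37 and 37.3 CPM in self-grafted scions and likewise had no count in heterografted scions, a difference of at least 203-fold on the same floor (adjusted p = 0.00217 by edgeR). Solyc09g075210 measured 4824, 3498, 1968 and 2017 CPM in self-grafted and 910, 704, 714 and 473 CPM in heterografted scions (log2 fold change -2.26 ± 0.57, n = 4 and 4, adjusted p = 0.0125 by edgeR). In all 3 genes every heterografted scion lay below every self-grafted scion. Solyc10g083880 and Solyc08g029000 were printed for the largest fitted falls in this comparison, which favours that separation. The share of all genes without overlap was not counted. Solyc12g014100, which after Solyc12g013700 had the largest fitted fall in heterografted against self-grafted stocks of 21 DAG, was also lower in heterografted scions, at 40.7, 52.6, 52.9 and 37.7 CPM against 190 to 430 CPM in self-grafted scions (log2 fold change -2.91 ± 0.37, adjusted p = 1.75e-04 by edgeR).

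The difference between the 2 scion courses was tested directly, as the change from 14 to 21 DAG in heterografted minus that in self-grafted scions, also added after the data were seen. It was negative for 21 of 142 members and positive for none by edgeR, against 0.6% and 1.24% of all tested genes, and the median was -1.90 for the members and 0.01 for all genes. At an unadjusted p under 0.05 it was negative for 49 members and positive for none, beside 5.89% and 8.74% of all tested genes, and DESeq2 called 35 negative and 1 positive, beside 1.15% and 2.4%. Of the 102 members it was negative for 20, against 0.579% of 12099 genes. Leaving out single libraries gave 10 to 24 calls, with 10 without heterografted scion replicate 3 of 14 DAG and 12 without heterografted scion replicate 2 of 14 DAG, self-grafted scion replicate 2 of 14 DAG or self-grafted scion replicate 2 of 21 DAG. For Solyc12g014100 the difference was -2.37 ± 0.45 on the log2 scale (adjusted p = 0.00415 by edgeR), with 62.6, 46.6, 57.9 and 57.3 CPM in self-grafted and 23.3, 37.6, 61.2 and 31.4 CPM in heterografted scions of 14 DAG.

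At 14 DAG the heterografted scion differed from its controls in both directions. Against self-grafted scions 5 members were higher and 23 lower, beside 2.05% and 3.62% of all tested genes. Of the 102 members 4 were higher and 22 lower, beside 2.05% and 3.64% of 12099 genes. The count of 5 was 9 without heterografted scion replicate 1, 1 without heterografted scion replicate 2 or 3, 2 without self-grafted scion replicate 1 or 5 and 3 without self-grafted scion replicate 3. Against ungrafted stems 28 were higher and 25 lower, beside 5.01% and 4.66% of all tested genes. Of the 102 members 24 were higher and 23 lower, beside 4.97% and 4.68% of 12099 genes. Solyc09g075210 was among the higher ones, at 178, 987, 791 and 626 CPM in heterografted scions against 24.1 to 114 CPM in ungrafted stems (log2 fold change 2.91 ± 0.43, adjusted p = 1.09e-04 by edgeR). Solyc08g029000 was among the lower ones, at 2.84 CPM in 1 heterografted scion and 0 in 3, against 10.4, 6.14, 21.8, 17.3 and 28.8 CPM in ungrafted stems (log2 fold change -4.68 ± 1.47, adjusted p = 0.0254 by edgeR), a call lost without heterografted scion replicate 1, 2 or 4. Solyc09g091210 had the largest fitted rise against ungrafted stems. It was at 0 in all 5 of those and at 0, 24.9, 45.4 and 16.5 CPM in heterografted scions, a mean at least 72.4-fold above the floor of 3 counts, and a call that DESeq2 and the fit with a replicate block did not make. At 21 DAG the order was reversed, with no count in heterografted scions and 0, 93.3, 333 and 64.4 CPM in ungrafted stems.

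**Figure D4:**
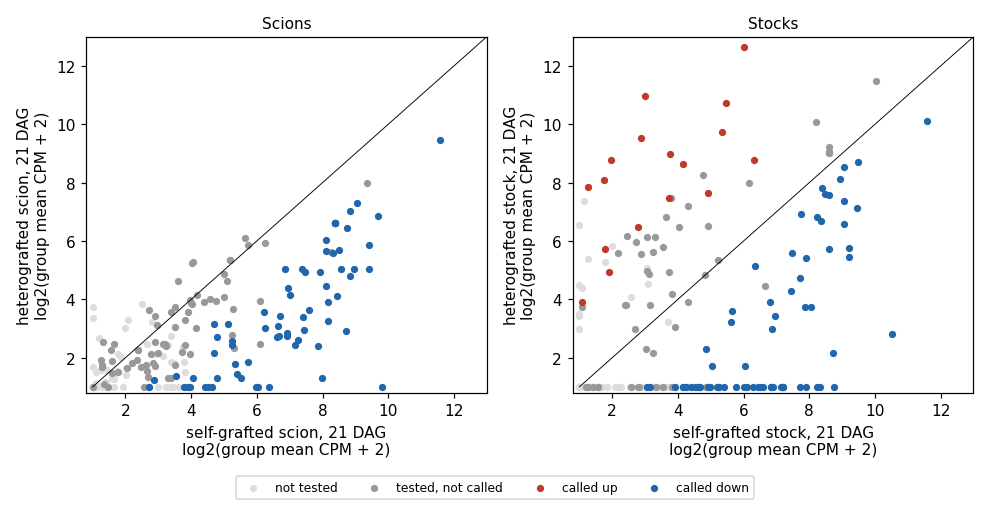
Group mean levels of the 200 members at 21 DAG as log2(mean CPM + 2), in heterografted (y axis) against self-grafted (x axis) scions on the left and stocks on the right, with the line of equal levels; colours give the call of the edgeR test. On the left 70 members are called down and none up; on the right 17 are called up and 68 down, beside a median log2 fold change of -3.67 over all tested genes.

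Heterografted stocks could be tested again at 21 DAG, on 3 libraries of few counts. Most tomato genes were lower there, with a median log2 fold change over all tested genes of -3.67 against self-grafted stocks and -3.74 against ungrafted stems. Low alignment rates, read by the study as degraded RNA, were described for the stocks of incompatible grafts, above all at 21 DAG. Their part in these values was not tested. Scaled by library totals alone these medians were -2.71 and -2.73. Of the 200 members, 98 had no count in the 3 libraries, where 3 counts over the group correspond to 5.7 CPM. Against self-grafted stocks 17 of 142 members were higher and 68 lower, beside 4.39% and 55.4% of all tested genes. The members' median of -3.40 was close to that of all genes, and 73 of 142 lay above the all-gene median. With no filter 22 of 197 members were higher and 78 lower, beside 4.91% and 36.2% of 21013 genes. Without the heterografted stocks of 7 DAG in the filter, 9 of 102 were higher and 59 lower against self-grafted stocks, beside 4.33% and 55.5% of 12099 genes, and 9 and 48 against ungrafted stems, beside 5.32% and 55%. Against ungrafted stems 14 were higher and 55 lower, beside 5.35% and 54.9%. With library totals alone 28 were higher and 47 lower against self-grafted stocks, beside 11.4% and 41% of all tested genes, and 31 and 32 against ungrafted stems, beside 13% and 40.3%. Higher calls thus made up 20% and 37.3% of the member calls against self-grafted stocks under the 2 scalings, and 20.3% and 49.2% against ungrafted stems. Over all tested genes these shares were 7.35% and 21.8%, and 8.87% and 24.3%, so the split moved with the scaling in all genes. Without ungrafted replicate 2, 27 members were called higher than in ungrafted stems, and with only the 2 groups in the fit 32 were called lower.

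A small set of members was very high in CPM in these stocks. CPM is a share of the library total, and most tested genes were lower there, so these levels are relative. Solyc08g080640 measured 7332, 3636 and 8522 CPM in heterografted stocks of 21 DAG, from 1661, 119 and 2276 counts, against 158, 86.5, 9.49, 35.9 and 23.6 CPM in self-grafted stocks. That was also above its own CPM of 109, 230, 217 and 221 in heterografted stocks of 7 DAG, a difference that was not tested between libraries of such unlike totals. Its log2 fold change against self-grafted stocks was 5.70 ± 0.95 (n = 3 and 5, adjusted p = 3.91e-05 by edgeR). Solyc12g100270 measured 2662, 1069 and 2288 CPM against 8.3, 9.35, 2.53, 5.05 and 4.71 CPM (log2 fold change 7.38 ± 1.01, adjusted p = 4.14e-06 by edgeR). In both genes the 3 heterografted stocks lay above every self-grafted stock. Both were printed for large fitted rises in heterografted stocks of 21 DAG, which favours that separation. Solyc04g083140 measured 154, 367 and 168 CPM, from only 35, 12 and 45 counts, and was found in 1 of 5 self-grafted stocks, at 1.9 CPM. It passed the filter only with its counts in heterografted stocks of 7 DAG, so its values are given with no test.

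Other members were lower in these stocks, as were most tested genes. Against self-grafted stocks 47.9% of the tested members were called lower, beside 55.4% of all tested genes. Solyc08g029000 was seen in 1 of the 3 stocks, at 26.5 CPM from 6 counts, and was called lower than in self-grafted stocks (log2 fold change -4.41 ± 1.46, adjusted p = 0.0151 by edgeR), a change 0.75 below the median of all genes. That call was lost without heterografted stock replicate 2 or 4 and with library totals alone. Solyc12g013700, with 54.6, 16.1, 87.7 and 28.1 CPM in heterografted stocks of 7 DAG, had no count in those of 21 DAG and 352 to 519 CPM in self-grafted stocks, at least 76-fold above the floor of 3 counts. Solyc09g075210 measured 786, 458 and 2078 CPM against 2317 to 3981 CPM in self-grafted stocks (log2 fold change -2.34 ± 0.63, adjusted p = 0.00327 by edgeR), a value 1.32 above the median of all genes and not called with library totals alone.

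**Figure D5:**
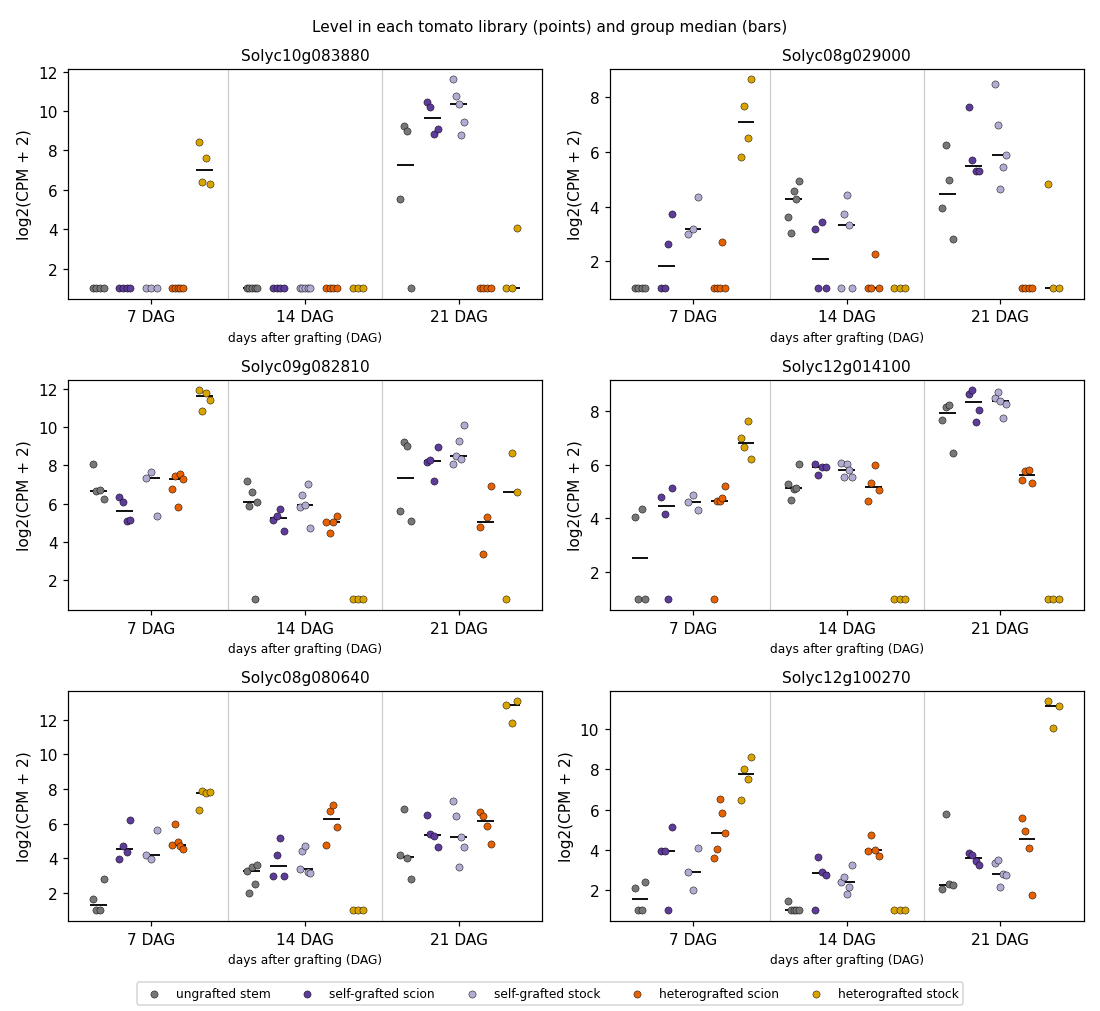
Level of 6 members in every tomato library as log2(CPM + 2) (y axis) by days after grafting (x axis), with points for libraries, bars for group medians and colours for tissues. Solyc10g083880 is at 0 in all libraries of 14 DAG and rises at 21 DAG in ungrafted and self-grafted stems only, apart from 4 counts in 1 heterografted stock, while Solyc08g080640 and Solyc12g100270 are highest in heterografted stocks of 21 DAG.

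None of the 17 members higher in heterografted than self-grafted stocks of 21 DAG was among the 70 lower in heterografted than self-grafted scions, and 55 tested members were in neither list. Of the 17 members 9 passed the filter without the heterografted stocks of 7 DAG, and of the 70 members 61, and the lists are then these 9 and 61, with none in both and 32 members in neither. Over all tested genes the lists held 535 and 560 genes and shared 4. At the level of group means, the 17 had a median of 120 CPM in heterografted stocks of 7 DAG and 398 CPM in those of 21 DAG, and 5.99 CPM in self-grafted stocks of 21 DAG. The 70 had 122 CPM in heterografted stocks of 7 DAG, 145 CPM in self-grafted stocks of 21 DAG, 133 CPM in self-grafted scions and 6.69 CPM in heterografted scions. For the 9 the medians were 263, 498 and 28 CPM in the same 3 groups, and for the 61 they were 142, 207, 167 and 8.86 CPM in the same 4. The 55 in neither list had 113 CPM in heterografted stocks of 7 DAG and at most 10.4 CPM in every other group, and the 32 had 226 CPM and at most 18.4 CPM. These medians describe lists made partly by the filter and support no statement about the members. The 58 members not tested had 26.4 CPM in heterografted stocks of 7 DAG and at most 1.2 CPM in every other group.

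The order of replicates 5 and 1 among the heterografted stocks of 7 DAG, libraries on which the members were selected, is given for the same lists as a description. Replicate 5 was above replicate 1 for 13 of the 17 (76.5%) and for 45 of the 55 in neither list (81.8%), and replicate 1 was above replicate 5 for 43 of the 70 (61.4%). Over all 200 members replicate 5 was above replicate 1 for 63% and below it for 36.5%, and over all tested genes for 43.9% and 50.8%. Solyc12g100270, at 87.4 CPM in replicate 1 and 386 CPM in replicate 5, and Solyc10g083880, at 337 and 77.1 CPM, show the 2 orders. These shares come from 2 libraries, which also took part in the filter behind these lists, and were not tested. They were not computed for the 9, 61 and 32 members of the filter without the heterografted stocks of 7 DAG, which Solyc10g083880 does not pass.

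The heterografted stocks of 14 DAG were not tested. They held 17, 12 and 11 counts on the 200 members, which is 1.13%, 1.32% and 1.22% of their totals, and 186 members had no count. The 5 near-identical genes on unplaced sequence had a mean of 1178 CPM each there, from 4 counts for Solyc00g500200. These sums may therefore hold the same reads up to 5 times. A count of 0 over this group allows a level of up to 903 CPM, so the absence of a member cannot be read there.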

How the data were processed

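Tomato counts from 61 libraries were analysed. The authors trimmed reads with Trimmomatic, aligned them with STAR 2.7.10b to the ITAG4 tomato models, used SAMtools 1.18, counted with StringTie and removed libraries with few reads. The deposited values are raw counts per gene from 3' libraries, without normalization. The pepper counts were not used here. Members and lists were chosen with earlier results of these data known.

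CPM is the count over the library total. Tests used edgeR 4.0.16 (TMM, quasi-likelihood) in R 4.3.3, with all tomato groups of a time point in 1 fit except the heterografted stocks of 14 DAG, and groups of 14 and 21 DAG together for comparisons between them. DESeq2 1.42.0, other scalings, filters, sample sets and leave-one-out fits were alternatives. The edgeR fit alone was also run on simulated counts, for heterografted against self-grafted stocks and scions of 21 DAG. Those counts held no general shift like that of the heterografted stocks, so they do not test the fit under it. Standard errors were derived from the F statistic of each test (size of the log2 change divided by the root of F) and are approximate. Floors are 3 counts over a group and cover counting error only. Identifiers were printed for at most 2 rising and 2 falling members per comparison by fold change, and for members with the highest score or level. The sources used here name no member by identifier, so gene families, cell type markers, promoters and sequences were not analysed here.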

Additional observations from a re-analysis of the deposited data

Results flagged for a closer look

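Dixon's test at the 95% level was run on 144 groups of 4 or 5 libraries, for the summed share of the members and for 11 members given library by library. It marked 17, and many of the marks are single libraries with a few counts beside libraries at 0. Such a library is always marked, and a group at 0 throughout never is. The 7.2 marks that chance gives for normal values are therefore no measure for these counts. Ungrafted replicate 2 of 21 DAG was marked for 3 members, at 53.1 CPM for Solyc12g100270 (others 2.24 to 2.91), 113 CPM for Solyc08g080640 (others 4.96 to 16.1) and 1.61 CPM for Solyc04g083140 (others 0). Self-grafted scion replicate 5 of 7 DAG was marked for Solyc09g091210 at 21.7 CPM (others 0 to 2.29). Solyc08g029000 stood apart in self-grafted scion replicate 2 of 21 DAG at 200 CPM (others 37 to 50.1), heterografted scion replicate 4 of 7 DAG at 4.43 CPM and heterografted scion replicate 3 of 14 DAG at 2.84 CPM (others 0 in both).

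Solyc08g080640 was low in heterografted stock replicate 1 of 7 DAG at 109 CPM (others 217 to 230) and high in heterografted scion replicate 2 of 7 DAG at 62.2 CPM (others 21.4 to 28.6). Solyc09g082810 reached 264 CPM in ungrafted replicate 1 of 7 DAG (others 74.9 to 101), and Solyc02g085950 reached 59.1 CPM in ungrafted replicate 2 of 7 DAG (others 20.4 to 26.3). Solyc04g083140 was the only non-zero value in its group at 3.27 CPM in self-grafted scion replicate 1 of 7 DAG and at 1.9 CPM in self-grafted stock replicate 3 of 21 DAG. The same held for Solyc12g100270 at 0.798 CPM in ungrafted replicate 1 of 14 DAG, Solyc09g091210 at 0.828 CPM in heterografted scion replicate 3 of 7 DAG and at 2.19 CPM in self-grafted scion replicate 2 of 14 DAG, and Solyc12g013700 at 2.6 CPM in ungrafted replicate 2 of 7 DAG.

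The change from 14 to 21 DAG differed between heterografted and self-grafted scions for 21 members, by the edgeR test of the difference. Among members given library by library it was -2.37 for Solyc12g014100 and -2.81 for Solyc09g075210 on the log2 scale, and several of the fits without 1 library did not call Solyc09g075210. For Solyc09g091210 the fitted value was -15.24, which depends on the prior count because a group is at 0. The heterografted stocks of 14 DAG, which entered no comparison, held a median of 1.22% of their counts on the members, against 0.303% in ungrafted stems of that day, from 11 to 17 counts per library. Those few counts include each of the 5 near-identical genes on unplaced sequence, which may be the same reads, so the 2 shares cannot be compared closely.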

How the results depend on the processing

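Of 499 alternative counts of members, 440 stayed within 1.5 times the reported count. With library totals alone in place of TMM, heterografted stocks of 21 DAG had 28 members called up against self-grafted stocks, and 31 up and 32 down against ungrafted stems. In fits of the compared groups alone, the counts were 32 down in heterografted stocks against ungrafted stems of 21 DAG, 9 up in heterografted against self-grafted scions and 3 up in self-grafted stocks against ungrafted stems of 14 DAG, 36 up from 14 to 21 DAG in ungrafted stems and 0 down from 14 to 21 DAG in self-grafted stocks. DESeq2 called 12 and 20 up in self-grafted stocks against ungrafted stems of 21 and 14 DAG, 1 up in heterografted scions against ungrafted stems of 21 DAG, 4 down from 14 to 21 DAG in self-grafted stocks, 1 down from 14 to 21 DAG in heterografted scions, and 35 negative and 1 positive in the difference of scion courses. With no filter 3 members were up in heterografted against self-grafted scions of 14 DAG and 2 against ungrafted stems of 21 DAG, and with filterByExpr 1 and 1. With the heterografted stocks of 7 DAG left out of the filter 9 members were up in those of 21 DAG against self-grafted stocks and 9 against ungrafted stems. Other values were 2 down in self-grafted stocks of 14 DAG with no fold threshold, 2 down from 14 to 21 DAG in self-grafted stocks with DESeq2 size factors and 0 with the heterografted stocks of 14 DAG in the fit, and 1 up from 14 to 21 DAG in heterografted scions with near-identical genes counted once. Counting near-identical genes once, the filter without the heterografted stocks of 7 DAG, the comparisons between 14 and 21 DAG and that of the scion courses were chosen after seeing the data.

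In the 8 planned comparisons replicate numbers did not pair the libraries, as deviations of same-numbered libraries correlated between -0.153 and 0.103. Between self-grafted scions and stocks, which were not compared, the correlations ran from -0.0705 to 0.245, and at no time point was every pair over 0.1. With a replicate block 2 members were up in heterografted against self-grafted scions of 14 DAG, 0 down from 14 to 21 DAG in self-grafted stocks, and 0 up and 1 down from 14 to 21 DAG in heterografted scions, while 60 were lower in heterografted than self-grafted scions of 21 DAG and no other count moved by over 1.5 times.

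Leaving out 1 library gave, against self-grafted stocks of 21 DAG, 14 to 18 up and 60 to 71 down in heterografted stocks, and against ungrafted stems 13 to 27 up and 41 to 62 down. For heterografted scions it gave 1 to 9 up and 18 to 23 down against self-grafted scions and 23 to 31 up and 22 to 26 down against ungrafted stems at 14 DAG, and 55 to 67 down and 0 to 6 up with 43 to 67 down at 21 DAG. Self-grafted stocks against ungrafted stems gave 6 to 14 up and 1 to 2 down at 14 DAG and 0 to 6 up at 21 DAG. From 14 to 21 DAG, 46 to 81 members rose and 3 to 5 fell in ungrafted stems, 63 to 74 rose and 0 to 1 fell in self-grafted stocks, 0 to 5 rose in heterografted scions, and the difference of scion courses was negative for 10 to 24. The rule itself kept 155, 174 and 173 of the 200 genes with pseudocounts of 0.5, 1 and 5, 158 with group medians and 196 with TMM scaling. Over 131 values of members given by identifier, 2255 alternative values included none of opposite sign with a call, and 214 lost and none gained a call. Families, promoter motifs and positions in a genome were not run.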
